A study of Mus musculus with 2 samples.

Results

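MHC class II antigen presentation was followed through 10 genes, taken as a list of symbols by their role in the pathway, with earlier results of these data known. They are H2-Aa, H2-Ab1, H2-Eb1, Cd74, H2-DMa, H2-DMb1, H2-DMb2, H2-Oa, H2-Ob and Ciita. Probes were assigned to them through the accession each probe carries, which gave 13 probes for 9 of the 10 genes, among 31993 genes or unnamed accessions with a probe. No probe carried an accession of H2-Eb1, so it was not analysed here. The probe of H2-Ob did not pass the detection filter, which left 8 members among 13902 detected genes. A gene counted as detected where, for 1 or both pools, its spot cleared Feature Extraction's background limit on each array.

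The tissue was ventral prostate of FVB/N mice at 6 months of age. The wild-type group was 1 RNA pool of 6 mice, and the transgenic group was 1 RNA pool of 6 mice with the ARR2PB-miR32 transgene. ARR2PB is a composite of probasin promoter elements that drives a transgene in prostate epithelium, here the microRNA miR-32. The same pair of pools was hybridised to 2 two-colour Agilent whole mouse genome arrays, with the transgenic pool in Cy3 on array 1 and in Cy5 on array 2. The arrays are technical replicates of 1 pool per genotype. Their SD (n = 2 arrays) therefore leaves out the spread between mice, and no significance test was possible. The luminal epithelial genes listed for the label check were all detected (10 of 10), among them the keratin gene Krt8 and probasin itself (Pbsn). The number of arrays limits the precision of every value.

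MHC class II molecules are heterodimers of an alpha and a beta chain that display peptides from endosomes to CD4 T cells. Dendritic cells, B cells and macrophages carry them constitutively, and interferon gamma can induce them in epithelium and other cells. The invariant chain Cd74 escorts new dimers to the endosome and plugs the groove, the cathepsin Ctss trims it, and H2-DM exchanges the remaining fragment for peptide, while H2-DO restrains H2-DM. Ciita is the main coactivator of class II genes. It acts through a complex of RFX, CREB and NF-Y factors on the X and Y boxes of their promoters.

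Class II transcripts were less abundant in RNA of the transgenic pool. By the call rule, a mean log2 ratio of transgenic over wild type of at most -1 together with at least 1.5-fold lower on each array, 7 of the 8 detected members were lower and 0 were higher. Of all 13902 detected genes, 3.53% were lower and 1.09% higher by the same rule. Of these members, 3 (H2-Oa, Ciita and H2-DMb2) passed the filter through the wild-type pool alone. A gene that passes that way had to be lower in the transgenic pool or close to the limit of detection, so the count over 8 members carries no weight of its own. The other 5 cleared the background limit in all 4 readings (either pool, either array), and all 5 were lower, where 2.22% of the 11995 genes with 4 such readings were. The median log2 ratio was -2.18 over the 8 detected members and -2.56 over those 5, against 0.01 over all detected genes. In whole tissue, fewer cells of a type and less RNA per cell cannot be told apart.

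**Figure D1:**
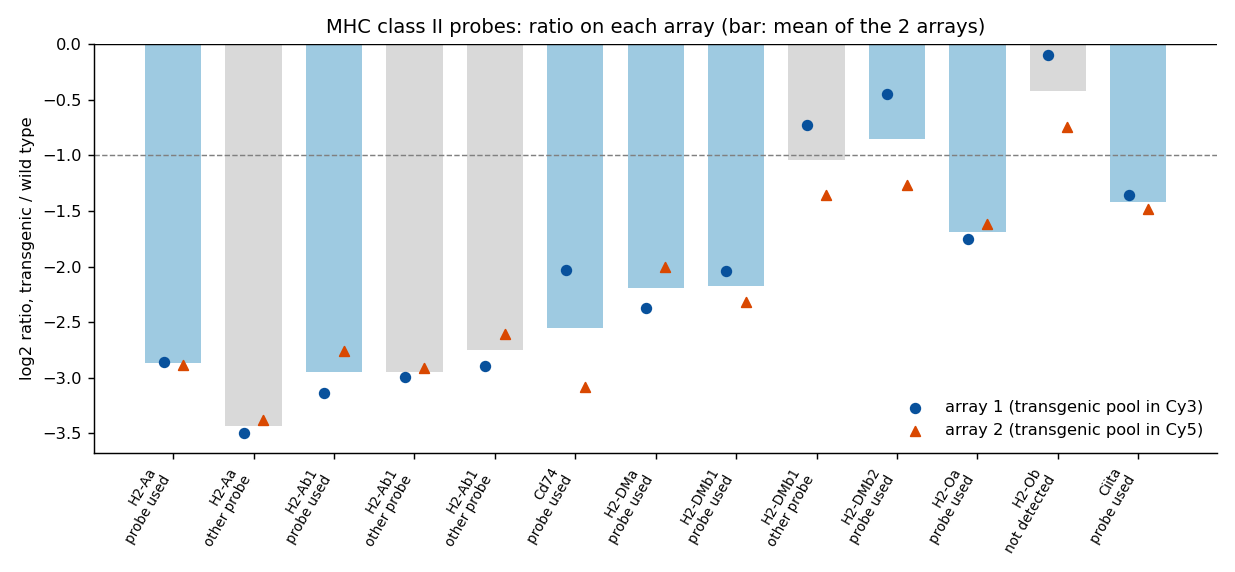
The log2 ratio of transgenic over wild type (vertical axis) for each of the 13 class II probes, on array 1 (circles) and array 2 (triangles), with the mean of both as bars (blue for the probe that stands for the gene, grey for the others). All points lie below 0, and the dashed line at -1 marks the mean needed for a call.

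The alpha and beta chains of I-A were both lower, and had the largest mean ratios among the members in the reported processing. The order was not stable, since Cd74 was lower than both on array 2 and Ciita was lower than both with Feature Extraction's processed signals. For H2-Aa, the alpha chain, the normalized log2 intensity in the wild-type pool was 12.50 on array 1 and 12.37 on array 2, and in the transgenic pool 9.64 and 9.49. The levels of the pools were well apart, and the arrays gave almost the same ratio, -2.85 and -2.88. The mean log2 ratio was -2.87 ± 0.02 (SD, n = 2 arrays), or 7.30-fold lower, with a rank of 71 from the lowest of all detected genes. The other H2-Aa probe gave a larger difference, -3.44 ± 0.09, or 10.8-fold lower.

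H2-Ab1, the beta chain of I-A, was measured by 3 probes. Its brightest probe had a normalized log2 intensity of 13.97 and 13.70 in the wild-type pool and of 10.84 and 10.94 in the transgenic pool, on array 1 and array 2. The ratio of this probe was -2.94 ± 0.27, or 7.70-fold lower, which placed H2-Ab1 at rank 64 from the lowest of all detected genes, ahead of the other members. The remaining probes gave -2.95 ± 0.05 and -2.75 ± 0.20, so the 3 probes differed by less than the SD of the brightest.

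H2-Ab1 also gave a view of error within an array, since 1 of its probes was printed as 10 spots. On array 2 the 10 spots had log2 ratios from -3.21 to -2.58, with a median of -2.92 and an SD of 0.18. On array 1, 9 spots were left after 1 outlier spot was removed, and they ran from -3.49 to -1.66 with a median of -3.15 and an SD of 0.53. The spots of array 1 were more scattered than those of array 2. Over the 129 detected probes with 10 spots, the median SD was 0.26 on array 1 and 0.19 on array 2. Every spot of the H2-Ab1 probe was below -1 on both arrays.

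Deposited intensities of the scanner, before any normalization, differed in the same direction within a dye. The brightest H2-Ab1 spot read 23591 in Cy3 for the wild-type pool on array 2 and 2789.5 in Cy3 for the transgenic pool on array 1, over local backgrounds of 25 and 30. In Cy5 it read 9484 for wild type on array 1 and 1285 for transgenic on array 2, over backgrounds of 113 and 119. In either dye the wild-type spot was the brighter. Cy3 and Cy5 readings differ in scale and cannot be set against each other. Readings within a dye come from different arrays, so any difference in brightness between the arrays is part of them.

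Cd74, the invariant chain, was lower by a mean log2 ratio of -2.56 ± 0.74, or 5.88-fold, with a rank of 111 from the lowest. Its normalized log2 intensity was 12.23 and 13.03 in the wild-type pool and 10.20 and 9.95 in the transgenic pool. The pools did not overlap. The ratio was -2.03 on array 1 and -3.08 on array 2, which is the widest gap between arrays among the members. The direction was therefore the same in both dye orientations while the size was less certain than for I-A. The median SD between arrays was 0.24 over all detected genes and 0.23 over the members.

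The subunits of H2-DM, the peptide exchange factor, were lower by a smaller ratio. H2-DMa, its alpha chain, had a normalized log2 intensity of 9.68 on each array in the wild-type pool and of 7.31 and 7.68 in the transgenic pool. The mean ratio was -2.19 ± 0.26, or 4.56-fold lower. H2-DMb1, a beta chain, stood at 11.03 and 11.11 in the wild-type pool and at 8.99 and 8.80 in the transgenic pool, with a ratio of -2.18 ± 0.20, or 4.52-fold lower. The ratios of the H2-DM alpha and beta chains thus differed by less than the SD of either.

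The probes of H2-DMb1 did not give the same size. The dimmer probe gave -0.73 on array 1 and -1.35 on array 2, a mean of -1.04 ± 0.44, or 2.06-fold lower. H2-DMb2, the neighbouring and closely related beta chain gene, cleared the background limit on each array in wild-type RNA and never in transgenic RNA. Its measured ratio was -0.86 ± 0.58, with normalized log2 intensities of 6.68 and 7.14 in the wild-type pool and 6.23 and 5.88 in the transgenic pool. On array 2 the transgenic signal was raised to the weakest signal called well above background. The difference was then 1.58-fold, from a mean wild-type level of 6.91. On array 1 the measured transgenic signal was above that array's weakest such signal and was kept. The 1.58-fold value is therefore not a strict minimum. H2-DMb2 was the 1 detected member that did not pass the call rule, since its mean was above -1 and array 1 gave -0.45. H2-DMb1 and H2-DMb2 are close paralogs, and signal shared between their probes was not checked.

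H2-DO, which restrains H2-DM and is known mainly from B cells and thymic epithelium, was seen through its alpha chain. H2-Oa had normalized log2 intensities of 8.41 and 8.62 in the wild-type pool and of 6.65 and 7.0 in the transgenic pool. The ratio was -1.69 ± 0.10, or 3.22-fold lower, with -1.76 on array 1 and -1.62 on array 2. Transgenic RNA cleared the background limit for it on array 1 and not on array 2, so part of this ratio rests on a signal near background. H2-Ob, the beta chain, cleared the limit in 1 of 4 readings, wild-type RNA on array 2, where its spot read 76 over a background of 26. In transgenic RNA on array 2 the spot read 107, under its background of 115. H2-Ob has no usable ratio at this sensitivity.

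Ciita, the coactivator, had normalized log2 intensities of 7.70 and 8.47 in the wild-type pool and of 6.34 and 6.98 in the transgenic pool. It was lower by a mean log2 ratio of -1.42 ± 0.09, or 2.68-fold, the smallest of the 7 called members in this processing. Transgenic RNA cleared the background limit for Ciita on array 1 alone. The ratio of Ciita is sensitive to how background is removed, with -3.72 from Feature Extraction's processed signals and -1.32 without background subtraction. H2-Oa likewise moved from -1.69 to -2.88 with the processed signals. Dim probes are compressed toward 0 by the offset of 50 that was added before the ratio was taken, so an order of sizes between bright and dim members is not settled.

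**Figure D2:**
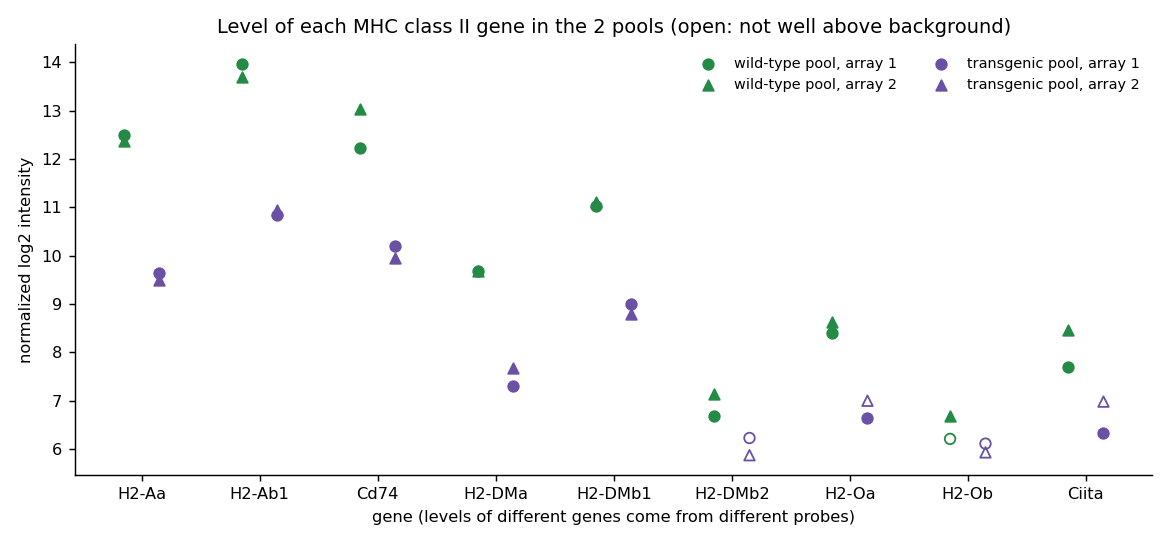
Normalized log2 intensity (vertical axis) of 9 class II genes in the wild-type pool (green) and the transgenic pool (purple), array 1 as circles and array 2 as triangles, with open symbols where the spot was not well above background. The points of a pool are technical replicates of the same RNA. H2-Oa, Ciita and H2-DMb2 passed the detection filter through the wild-type pool alone. Levels of different genes come from different probes and are not comparable.

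Proximal promoters of the members are shown for the letters that class II promoters are known to share. RefSeq promoter windows (GRCm38.p6, C57BL/6J, 250 bases before to 50 after the start site) were found for 7 of the 10 members. The stretch from 150 to 11 bases before the start is printed 5′ to 3′ for I-A alpha, both H2-DM beta chains and H2-DO alpha. These are the measured members with marked letters in that stretch. H2-DMa was lower too, and its windows show none of the marked letters there. Capitals mark CTGATTGG (the Y box), AGNNACNGA (letters of the X box core) and CCAAT or its complement ATTGG, which lies inside the Y box. FVB/N mice carry another H2 haplotype than C57BL/6J, and their promoter sequences may differ from these.
H2-Aa, chr17:34287834-34287973, minus strand: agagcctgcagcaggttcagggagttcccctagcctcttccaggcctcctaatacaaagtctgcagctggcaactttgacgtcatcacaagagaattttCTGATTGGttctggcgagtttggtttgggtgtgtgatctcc
H2-DMb1, chr17:34153041-34153180, plus strand: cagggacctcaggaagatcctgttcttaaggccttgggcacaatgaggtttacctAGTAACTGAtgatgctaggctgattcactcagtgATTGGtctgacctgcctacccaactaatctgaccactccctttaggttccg
H2-DMb2, chr17:34145099-34145238, plus strand: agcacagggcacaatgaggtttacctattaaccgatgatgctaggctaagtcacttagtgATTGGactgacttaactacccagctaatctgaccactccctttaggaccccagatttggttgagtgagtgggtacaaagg
H2-Oa, chr17:34092229-34092368, plus strand: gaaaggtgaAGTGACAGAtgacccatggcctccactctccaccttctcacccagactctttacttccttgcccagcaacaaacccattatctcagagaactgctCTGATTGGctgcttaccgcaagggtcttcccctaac

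The 7 members (H2-Aa, H2-Eb1, H2-DMa, H2-DMb1, H2-DMb2, H2-Oa and H2-Ob) had 8 windows. Among them, H2-Eb1 had no probe and H2-Ob was not detected, so neither has a ratio here. The letters CCAAT, on either strand, were in 7 of the 8, and in 37.4% of all 32817 promoter windows of the same length. Each of the 7 members had a window with them. The Y box letters CTGATTGG were in 3 of the 8 windows, those of H2-Aa, H2-Eb1 and H2-Oa, and in 4.09% of all windows. The letters AGNNACNGA were in 4, H2-Eb1, H2-DMb1, H2-Oa and H2-Ob, against 17.7% of all windows, and the shorter form AGNNACNG in 5 against 50.9%. Their places differed. H2-Eb1 and H2-DMb1 had a match with its first base at -92 and -95 from the start site, the match of H2-Oa on the printed strand was at -141, and the match of H2-Ob lay after the start site on the other strand. Both AGNNACNGA and CTGATTGG were in the windows of H2-Eb1 and H2-Oa, and in 0.737% of all windows. Among the sequences printed, H2-DMb1 has the letters AGNNACNGA and H2-DMb2 does not, while both keep ATTGG. A match is a run of letters and says nothing of binding in these samples.

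In the genome, 8 of the 10 genes, all but Cd74 and Ciita, sit close together on chromosome 17, so the ratios can also be read in gene order. Psmb9, Tap1, Psmb8 and Tap2, which make and carry peptides for class I molecules, lie between the H2-DM genes and H2-Ob, and Brd2, a bromodomain protein of general transcription, lies between H2-Oa and H2-DMa. Of these 5 interspersed genes, Psmb8 (-1.67 ± 0.04) and Psmb9 (-1.54 ± 0.28) were lower by the call rule. Tap1 stood at -0.65 ± 0.49, Tap2 at -0.61 ± 0.02 and Brd2 at -0.07 ± 0.05. Brd2 thus stayed near 0 between H2-Oa at -1.69 and H2-DMa at -2.19. Outside the span, 3 of 10 detected neighbours were lower: the class I genes H2-K1 (-1.51 ± 0.22) and H2-K2, whose probes may share signal, and Gpsm3 (-1.04 ± 0.48), named by position.

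**Figure D3:**
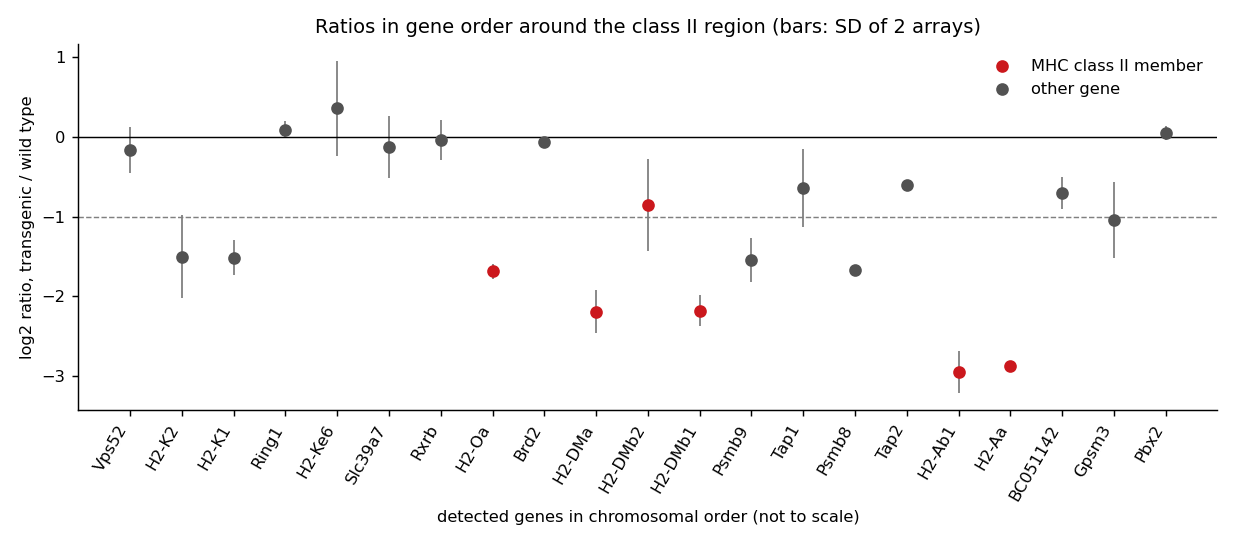
Mean log2 ratio of transgenic over wild type (vertical axis, bars show the SD of 2 arrays) for detected genes in their order along chromosome 17, class II members in red and other genes in grey. Members lie from -0.86 to -2.94, and Brd2 at -0.07 and Ring1 at 0.09 lie near 0 among them and beside them.

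Some genes that prepare class II molecules in the endosome passed the call rule. Of 11 genes of peptide processing and turnover, all detected, 3 (27.3%) were lower and 0 higher, with a median of -0.60. Among the 10 with all readings above background, 2 were lower and the median was -0.58. For this and the lists below, the overall share lower was 3.53% of detected genes. It was 2.22% of genes with all readings above background. The lower genes were Ctss, the cathepsin that trims the invariant chain (-2.62 ± 0.61), Ctsz, another cathepsin (-1.26 ± 0.20), and Marchf1, a ubiquitin ligase that removes class II from the surface (-1.25 ± 0.15). The transgenic pool was above background for Marchf1 on 1 array, and Ctsz did not pass under median centring. Marchf8, a relative of Marchf1, stood at -0.47 ± 0.17. The thiol reductase Ifi30 stood at -0.60 ± 0.35. Ctsl, the cathepsin of thymic epithelium, stood at 0.85 on array 1 and at -0.65 on array 2, so that its direction turned with the dyes.

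Most detected factors of the class II promoter other than Ciita did not pass the call rule. Of 16 listed transcription genes 13 were detected, 3 were lower and 0 higher, and the median was -0.24. The share lower was thus 23.1%, against 3.53% of all detected genes. Among the 11 with all readings above background, 2 were lower, where 2.22% of all such genes were, and the median was -0.06. Rfxap stood at -0.06 ± 0.46 and Rfxank at 0.39 ± 0.61, both subunits of the RFX complex, while Rfx5 was not detected. The lower genes included Irf4, a factor of lymphocytes and dendritic cells (-1.29 ± 0.05, above background in the transgenic pool on 1 array), and Irf1, an interferon-induced factor (-1.06 ± 0.09). The other probe of Irf1 gave -0.26. Under median centring 1 of the list was lower, and Irf1 no longer passed.

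Interferon gamma, which induces Ciita, had no detected transcript here (Ifng). Of 11 genes of its signalling list 10 were detected, 4 were lower and 0 higher, with a median of -0.82. Among the 7 with all readings above background, 3 were lower and the median was -0.58. The rest of those detected passed the filter through the wild-type pool alone. Beside Irf1, the lower genes included the interferon-induced GTPases Gbp2 (-2.08 ± 0.26) and Gbp3 (-1.96 ± 0.21, above background in the transgenic pool on 1 array). Costimulatory genes were mostly below detection. Cd40, the receptor for CD40 ligand, and Cd86, a ligand of CD28, were not detected. Of 10 listed 3 were, and Cd83, a surface protein of mature dendritic cells and B cells, was lower at -1.38 ± 0.35, with 1 transgenic array above background. With detection required in both pools, Cd83 dropped out, 1 gene of the list was left and 0 were lower.

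The class I pathway is the nearest relative of the class II set. Of its 13 genes 10 were detected, 3 were lower and 0 higher, and the median was -0.75, against 7 of 8 and -2.18 for class II. The lower genes were the immunoproteasome subunits Psmb8 and Psmb9 and the heavy chain H2-K1, of which Psmb8 and H2-K1 did not pass under median centring, leaving 1. B2m, the shared light chain of class I, stood at -1.29 on array 1 and -0.58 on array 2, with a mean of -0.94, which missed the rule. Among genes with all 4 readings above background, 3 of 9 class I genes were lower with a median of -0.84, beside the 5 of 5 class II genes with a median of -2.56. With 1 pool per genotype the difference between the lists was not tested.

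Pan-leukocyte genes were lower as well, and their part in the result was not tested. All 6 pan-leukocyte genes were lower, with a median of -2.11 and a range from -2.79 to -1.09, led by Cd52 (-2.79 ± 0.18). Ptprc, the common leukocyte antigen CD45, stood at -2.57 ± 0.03 with 1 transgenic array above background, and Coro1a at -2.53 ± 0.43. The 3 detected probes of Ptprc ran from -2.57 to -1.004, so its size was not settled. When all probes of a gene were averaged, the pan-leukocyte median was -1.67. Of the 6, 3 passed the filter through the wild-type pool alone. The 3 with all readings above background were lower, with a median of -2.53.

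B cells and macrophages present through class II, and some of their markers were lower. Of 9 B cell genes 7 were detected and 4 were lower, with a median of -1.54, a highest value of -0.47 and a lowest of -3.80 for Cd79b, a chain of the B cell receptor complex. Ms4a1, which encodes CD20, stood at -3.70 ± 0.30 and was above background in the transgenic pool on 1 array. Of the 7 detected B cell genes, 6 passed through the wild-type pool alone, so their count and median carry no weight. Cd79b was the 1 gene with all readings above background, and stood at -3.80 ± 0.20. Cd79a stood at -0.61 ± 0.70 and was not called, although it partners Cd79b. Of 11 macrophage genes 10 were detected and 6 were lower (3 under median centring), with a median of -1.18 and a range from -2.17 for lysozyme (Lyz2) to -0.58. Adgre1, a surface receptor of mouse macrophages, stood at -1.39 ± 0.56 and Csf1r, the receptor for the macrophage growth factor CSF1, at -0.91 ± 0.41.

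Most dendritic cell genes were below detection. Of 9 listed, 3 were detected and 0 were lower, with a median of -0.49. They were Itgax (-0.84 ± 0.22, above background in the transgenic pool on 1 array), Xcr1 (0.01 ± 0.07) and Ccr7 (-0.49 ± 0.33). Transgenic RNA never cleared the background limit for Ccr7. Xcr1 was the 1 gene with all readings above background. With Feature Extraction's processed signals 2 of the 3 were lower with a median of -2.56, and at offset 0, 1 was lower. The median was 0.13 in the deposited series table, which measured 12011 genes in place of 13902 and may hold fewer of the 3. Detection required in both pools left 12012 genes, and of the 3 Xcr1 alone, at 0.01. Flt3, Zbtb46, Clec9a, Cd209a, Batf3 and Ccl22 were not detected. T cells, which recognise class II but in mice carry little of it, had 7 of 9 genes detected and 5 lower (3 without background subtraction), with a median of -1.18 and a range from -1.56 to 0.01. All 5 passed the filter through the wild-type pool alone. With detection required in both pools they dropped out, 1 gene of the list was left and 0 were lower. Cd4, the coreceptor for class II, was not detected, and Cd3e stood at 0.01 ± 0.53.

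No gene of the luminal, basal or smooth muscle lists was lower by the call rule in the reported processing, and at most 1 basal and 1 smooth muscle gene was in any alternative. The 10 luminal genes had a median of 0.07 with 0 lower and a range from -0.07 to 0.90, including Krt8 at 0.36 ± 0.38 and Pbsn at 0.02 ± 0.50. The 5 basal genes had a median of -0.41 with 0 lower, and the 5 smooth muscle genes a median of -0.30 with 0 lower. Of 6 fibroblast genes, Lum and Col3a1 were lower at -1.11 ± 0.09 and -1.11 ± 0.05, with a median of -0.91. The fibroblast count depended on the processing, with 0 lower under median centring, 4 on array 2 alone and 5 in the deposited series table and under the 1.5-fold rule. Endothelial markers were not detected apart from 1 of 5, and Pecam1 and Cdh5 were among those missing.

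**Figure D4:**
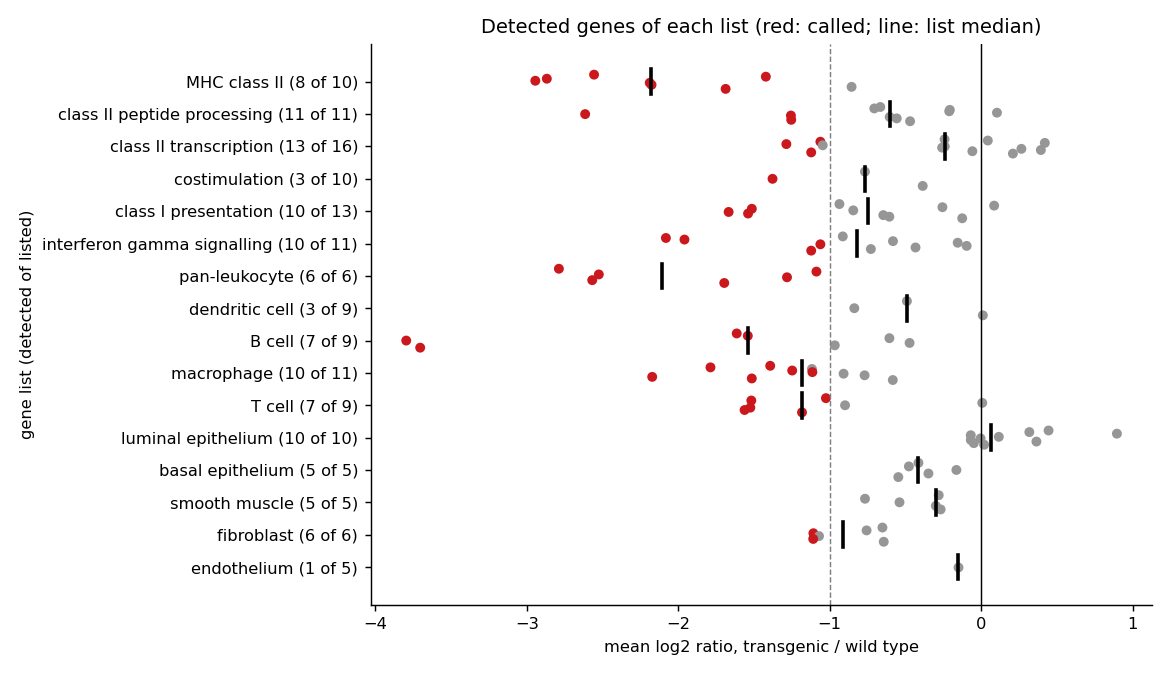
Mean log2 ratio of transgenic over wild type (horizontal axis) for each detected gene of 16 lists, called genes in red, others in grey, list medians as black lines. The class II and pan-leukocyte medians lie at -2.18 and -2.11, and the luminal median at 0.07.

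**Figure D5:**
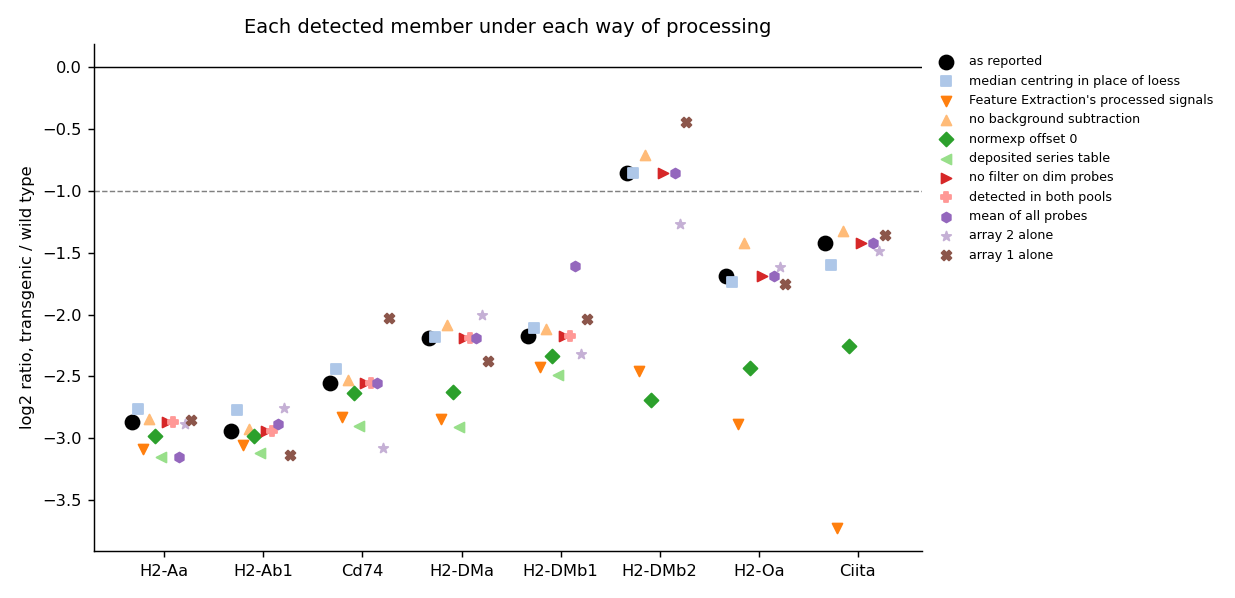
Log2 ratio of transgenic over wild type (vertical axis) for the 8 detected members under the reported processing (large black circles) and 10 other ways of processing or averaging (small symbols). The values of H2-Aa, H2-Ab1, Cd74, H2-DMa and H2-DMb1 stay below -1.6, and those of H2-DMb2, H2-Oa and Ciita spread most.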

How the data were processed

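Per the file headers, Agilent Feature Extraction 11.0.1.1 quantified the scans (annotation build mm9). The deposited scanner files hold spot and local background intensity per dye as median pixel values, and processed intensities that Feature Extraction had background-subtracted and dye-normalized. The deposited series table holds log2 ratios, whose filter no source used here states. Set against the scanner files it runs as transgenic over wild type, and each column has a median of 0.

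The normexp method (offset 50) removed background, and loess normalized each array's ratios (limma 3.58.1, R 4.3.3), with controls and outlier spots at weight 0. Spots of a probe were averaged, ratios were turned by the labelled dyes, and the 2 arrays were averaged. Levels of each pool were scaled further with Aquantile. The probe of highest mean intensity stood for a gene. Symbols came from RefSeq (GRCm38.p6) by accession, and 27816 of 41174 probes matched. The 1.58-fold value of H2-DMb2 sets the wild-type mean against a transgenic mean. On each array, the transgenic signal or the weakest signal called well above background was taken, whichever was higher.

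The normalization was tested on simulated data. All members were named by every probe, and other lists by up to 4 called genes, the first 2 markers of a cell type and genes named in the design. Xcr1, Ccr7 and Ring1 were named after their values were seen. Members and lists were chosen with earlier results of these data known. Some genes of the lists are counted but not reported here by name. Alternatives are given in the closing section.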

Additional observations from a re-analysis of the deposited data

How the results depend on the processing

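Of the detected members, H2-Aa, H2-Ab1, Cd74, H2-DMa and H2-DMb1 were called lower under all 12 alternatives, and H2-Oa and Ciita under the 10 that measured them. H2-DMb2 was called under 4 of 10, with -2.69 at a normexp offset of 0 and -2.46 with Feature Extraction's processed signals. Each member kept its direction under every alternative that measured it, and the count of members lower was 7 of 9 without the filter on dim probes, 7 or 8 of 8 in most settings and 5 of 5 where fewer were measured (the deposited table, or detection required in each pool). The class II median was -2.86 with Feature Extraction's signals, -2.63 at offset 0, -2.91 in the series table, -2.56 with detection in both pools and -1.94 when all probes of a gene were averaged. On single arrays it ran from -2.16 to -2.03. The count of genes lower, 491, became 938 with Feature Extraction's signals, 770 at offset 0, 267 with detection in both pools and 1077 under a 1.5-fold rule. The count higher, 151, became 99 under median centring, 309 with Feature Extraction's signals and 472 under the 1.5-fold rule, and on single arrays 271 to 450. The T cell median was 0.01 with detection in both pools, where 1 gene was left (exactly, 0.00698). Signal over background limits H2-DMb2, H2-Oa, H2-Ob and Ciita.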
